A study of Glycyrrhiza uralensis with 30 samples.

Results

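In the stems and leaves of *Glycyrrhiza uralensis* seedlings, a licorice, 62 of 34445 genes were higher after 2 h of simulated drought and close to control at the later times and in the roots. They were selected on the measured values themselves. With L as the mean log2(TPM + 1) of the 3 libraries of a group, a member had to be at least 1.5 higher at 2 h than control aboveground, to differ from control by less than 1 at 6, 12 and 24 h aboveground and at all 4 times underground, and to reach a mean of at least 5 TPM in its highest group. TPM is a transcript abundance per length, scaled to a common total over all transcripts of a library. The rise at 2 h, the small later differences and the small root differences are therefore how the genes were chosen and are given as a description. Per-gene tests are kept for the difference between shoots and roots, which was not itself a condition. The rule used the libraries of both parts, however, so these tests are not free of the choice.

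The treated seedlings were kept in MS nutrient solution with polyethylene glycol 6000 (PEG 6000) at 100 g/L for 2, 6, 12 or 24 h, and the control, labelled CK, is the 0 h sample, whose treatment label reads distilled water. RNA of the aboveground part, which is stems with leaves and is called shoot here, and of the underground part, the root, was sequenced at each of the 5 times, with 3 libraries a group and 30 in all. All seedlings are labelled as 60 days old, whereas the protocol speaks of 1 week of hydroponic growth, and no genotype or strain is given. There were no controls at 2, 6, 12 or 24 h, so PEG, medium and elapsed time cannot be told apart. Whether replicate libraries stem from different plants is not given, so a p-value here covers only the variation among the sequenced samples, possibly technical. Libraries carry the numbers of their titles, shared by both parts: 1, 2 and 3 belong to 2 h, 4, 5 and 6 to 6 h, 7, 8 and 9 to 12 h, 10, 11 and 12 to 24 h, and 31, 32 and 33 to control.

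PEG of this size largely stays outside plant cells and lowers the water potential of the medium, so that roots take up water less easily. Leaves meet the stress at a distance, through the fall in water supply and through signals from the root, among which abscisic acid and hydraulic signals are the best known. Early transcripts of such responses are often transient: they rise within the first hours and decline again while other genes take over. The identifiers are not paired with gene names in the files and no annotation was used here, so the members are given by identifier, with their levels and time courses, and neither the tissue nor the role of a gene could be checked against named markers. No sequence of a member is shown for the same reason.

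Most genes with such a rise at 2 h were not confined to it. At least 1.5 higher at 2 h aboveground and at 5 TPM or more stood 988 genes, of which 734 were also at least 1 higher at 24 h aboveground. A further 7 were at least 1 lower at 24 h. At 12 h, 156 of the 988 were at least 1 higher and 138 at least 1 lower, and at 6 h 134 and 38. In the roots at 2 h, 332 were at least 1 higher and 75 at least 1 lower. Of the 988, 351 failed a limit aboveground only, 100 failed underground only, 475 failed in both parts, and the 62 members failed none. The limit at 24 h alone kept out 210 genes that met every other condition, more than any other single limit. The limit on the roots at 2 h alone kept out 29.

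The members had a smaller difference at 2 h than the genes that were also higher at 24 h. Their median difference was 1.70 on the log2(TPM + 1) scale, against 2.19 for the 734 genes. Their median level was 38.5 TPM at 2 h and 10.2 TPM in control, and that of the 734 genes was 53.2 TPM and 7.83 TPM. These sets were cut from the same values, so the differences between them were not tested.

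By level, the members ran from barely detected to abundant. In control shoots, 18 members averaged under 1 TPM, 13 between 1 and 10 TPM, 25 between 10 and 100 TPM and 6 at least 100 TPM. At 2 h, 10 averaged under 10 TPM, 32 between 10 and 100 TPM and 20 at least 100 TPM. The difference at 2 h ranged from 1.502 to 3.94, and 19 members were at least 2 higher.

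**Figure D1:**
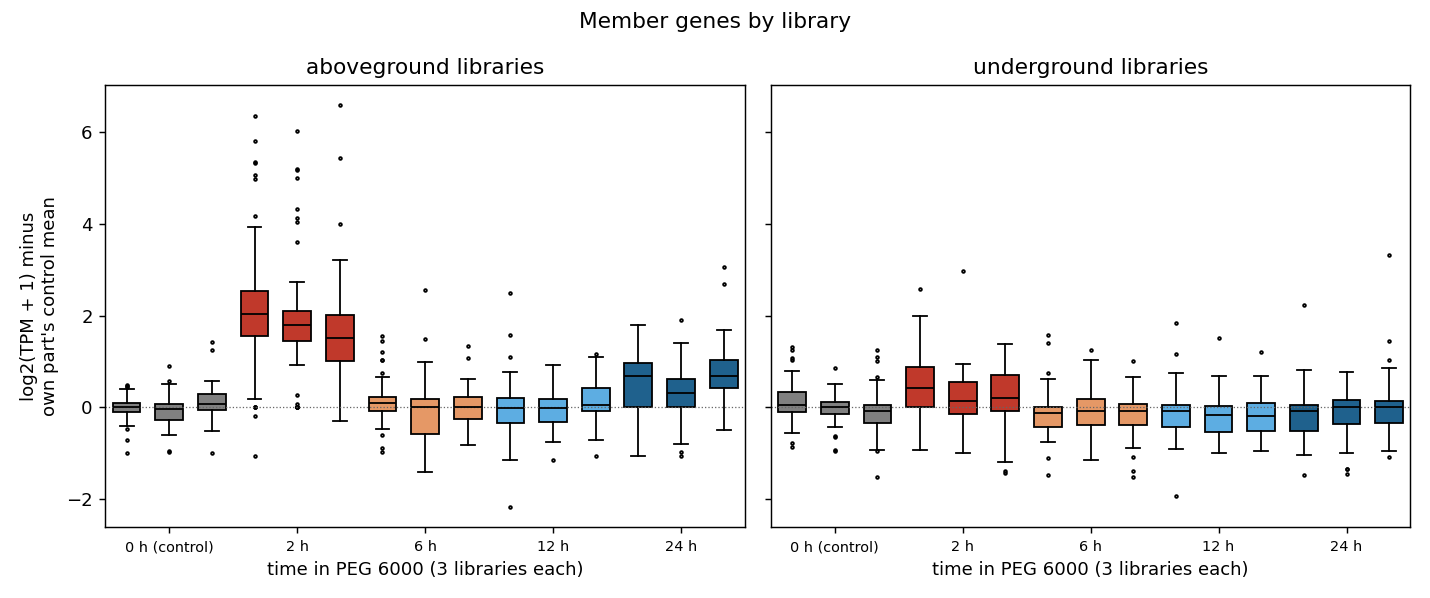
Box plots of the 62 members in each library, as log2(TPM + 1) minus the control mean of the same part, for aboveground (left) and underground libraries (right) in order of time; boxes span the quartiles, the line is the median, whiskers reach 1.5 box lengths and points lie beyond. The 2 h shoot libraries have medians of 2.03, 1.80 and 1.52, and those of 24 h lie at 0.68, 0.31 and 0.69.

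The rule acts on group means, and the single libraries show how evenly they were made up. The median member stood 2.03, 1.80 and 1.52 above the control mean in libraries 1, 2 and 3 of 2 h aboveground, and 55, 52 and 47 of the 62 members were at least 1 above it. At 6 h the medians were 0.09, 0 and 0, and at 12 h -0.01, -0.02 and 0.04. At 24 h they were 0.68, 0.31 and 0.69 in libraries 10, 11 and 12. The rule sets each member's mean at 2 h above those of the other times, which pushes the library medians of 2 h above the others. Those of 24 h lay a little above control. Library 1 was the highest of the 3 for 31 members, library 2 for 18 and library 3 for 13. In the box plots by library, single points at 2 h lie far above the boxes.

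The count of members past limma's threshold at 2 h repeats the choice and is only a description. Of the 62, 53 passed the filter of at least 1 TPM in at least 3 shoot libraries and were tested, and 9 were not, since they reached that level in fewer libraries. By limma's test with Benjamini-Hochberg adjustment over 23541 genes, 44 of the 53 were called higher at 2 h than in control; 4.96% of all tested genes were. Against the other treated times, 42 were called higher at 2 h than at 6 h (5.36% of all genes), 44 higher than at 12 h (6.66%) and 15 higher than at 24 h (1.44%). The rule fixed these directions. For the other 38 tested members a difference between 2 h and 24 h did not pass the test, although by the rule their means differ by more than 0.5.

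The 3 libraries of 2 h did not overlap with control in 47 of the 62 members, and in 31 of them each exceeded all 12 other aboveground libraries. Among the 20877 genes that reached 5 TPM in a group, 12.5% exceeded the controls and 2.35% the other 12 libraries in this way. Of the 734 genes that were also higher at 24 h, chosen for the same rise, 612 exceeded the controls and 121 the other 12 libraries. The members fall into 3 classes by this overlap, set from the same values and so without a test. The 31 that exceeded all 12 had a median of 124.2 TPM at 2 h and 34.6 TPM in control, and a median SD among the 3 libraries of 2 h of 0.27 on the log2(TPM + 1) scale; limma called all 31 at 2 h. The 16 that exceeded only the controls had medians of 11.8 and 1.55 TPM and an SD of 0.80, and 13 of the 15 tested were called. The 15 that overlapped with the controls had medians of 15.5 TPM and 0 TPM and an SD of 2.93, and none of the 7 tested was called by limma at 2 h. In roots at 2 h the 31 had a median difference from control of 0.64, with 30 of them above control. For the 16 that median was 0.14 and for the 15 it was 0.

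**Figure D2:**
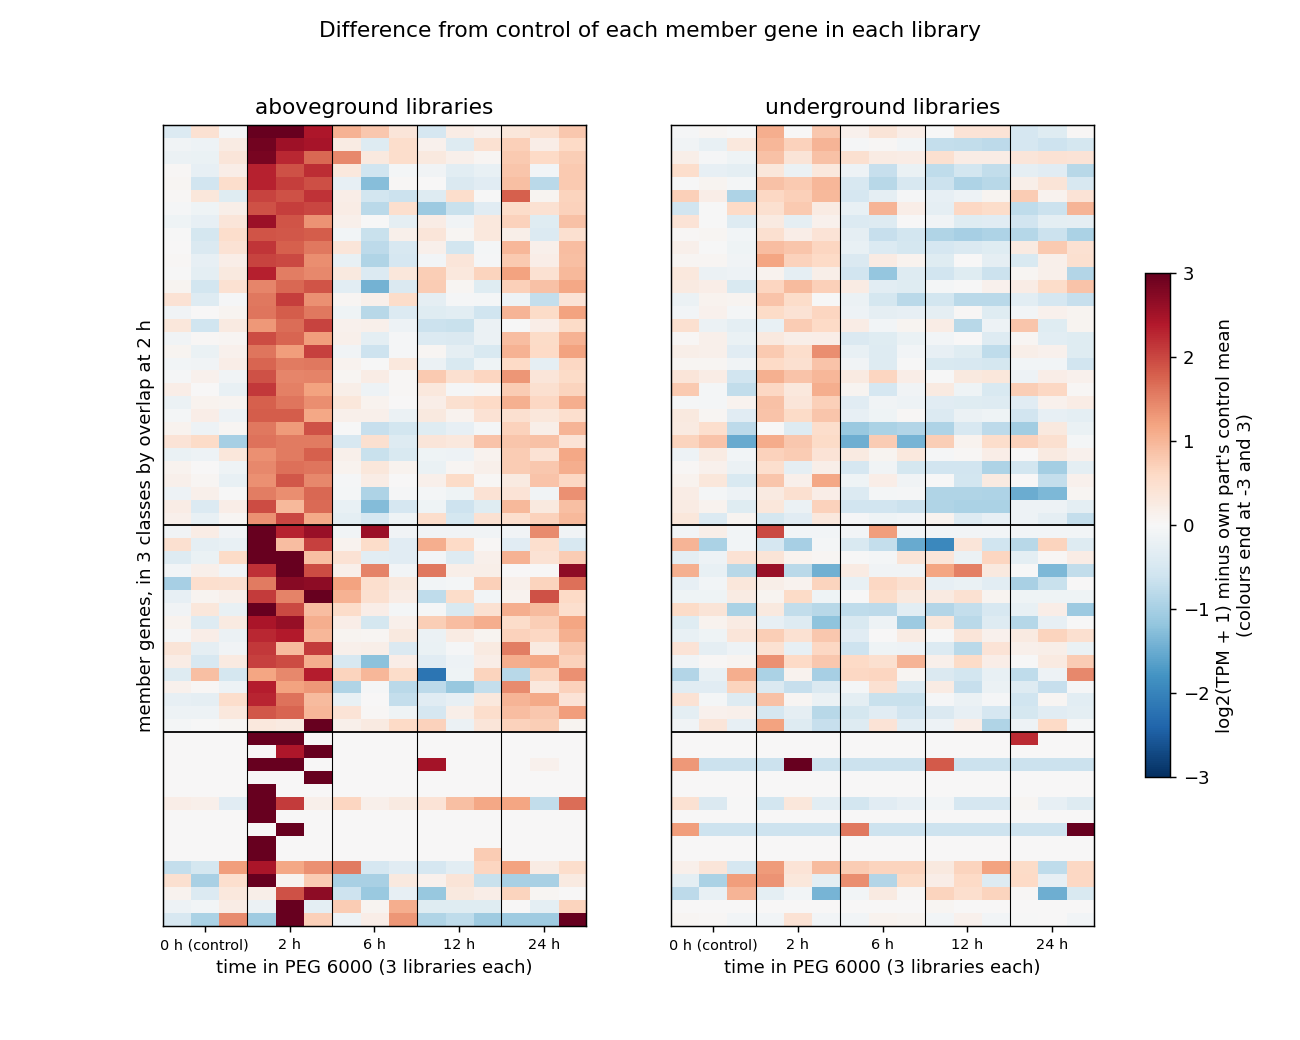
Heat map of the 62 members (rows) in the 30 libraries (columns, 3 for each time), coloured by log2(TPM + 1) minus the control mean of the same part; black lines part the 31 members above all 12 other shoot libraries at 2 h (top), the 16 above the controls only (middle) and the 15 that overlap with the controls (bottom). In the top block all 3 columns of 2 h are high, whereas in most rows of the bottom block only 1 or 2 are.

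The 10 members with the largest difference at 2 h among those 31 with at least 10 TPM are described next. Glyur000709s00024183 came first. It had 313.0, 453.4 and 137.1 TPM at 2 h, against 18.3, 34.1 and 24.3 TPM in control shoots. All other aboveground libraries lay between 17.2 and 51.7 TPM, so even its lowest library of 2 h was far above them. The means were 301.2 ± 158.5 TPM at 2 h and 25.6 ± 7.98 TPM in control (SD, n = 3 each), a ratio of 11.8. In roots it stayed between 9.03 and 29.6 TPM in all 15 libraries.

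Glyur000062s00005475 had 315.8, 210.7 and 144.6 TPM at 2 h, against 38.1, 37.5 and 55.6 TPM in control shoots. Its 6 h libraries had 118.4, 53.2 and 62.8 TPM, so 1 of them came near the lowest library of 2 h. The roots lay between 53.6 and 108.5 TPM, and 14 of the 15 root libraries were above all 3 control shoots, but each was below every shoot library of 2 h.

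Glyur000065s00004333 had 211.6, 162.1 and 199.7 TPM at 2 h, against 43.1, 35.5 and 48.6 TPM in control shoots. In roots it lay between 77.0 and 200.7 TPM, so at 2 h the shoots reached the root level. Glyur000823s00027914 behaved likewise, with 239.3, 203.3 and 183.1 TPM at 2 h, against 49.7, 31.4 and 68.8 TPM in control shoots, and 60.2 to 231.2 TPM in roots. Glyur006067s00042714 had 259.9, 161.9 and 111.8 TPM at 2 h, against 39.3, 36.3 and 55.8 TPM in control shoots, and 123 to 247.2 TPM in roots. Every control shoot library lay below every root library in Glyur000065s00004333 and Glyur006067s00042714, whereas the highest control shoot of Glyur000823s00027914 exceeded its lowest roots.

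Glyur000017s00002379 was among the most abundant. It had 686.1, 775.6 and 734.1 TPM at 2 h, against 177.7, 166.3 and 208 TPM in control shoots. In order of time, the shoot mean was 184 ± 21.6 TPM in control, then 731.9 ± 44.8 TPM after 2 h, 191.5 ± 79.0 TPM after 6 h, 115.2 ± 29.4 TPM after 12 h and 274 ± 22.6 TPM after 24 h (SD, n = 3 each). The tight group at 2 h, an SD of 44.8 TPM on a mean of 731.9, contrasts with the roots, which ranged from 152.1 to 527.6 TPM with overlapping times.

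Glyur000049s00003176 had the smallest spread at 2 h of the 10, with 90.3, 88.9 and 86.9 TPM, against 23.7, 16.4 and 34.8 TPM in control shoots. Glyur000320s00014324 had 56.0, 51.6 and 61.5 TPM at 2 h, against 13.3, 16.6 and 9.88 TPM in control, but 1 library of 24 h reached 47.3 TPM. Glyur000175s00012042 had 250.7, 195.8 and 169.7 TPM at 2 h, against 56.4, 41.3 and 75.5 TPM in control. Glyur000401s00023652 had 143.1, 137.3 and 92.3 TPM at 2 h, against 35.2, 29.0 and 39.6 TPM in control. Across these 10 genes the mean at 2 h was 3.56 to 11.8 times the control mean. In Glyur000062s00005475, Glyur000823s00027914, Glyur000049s00003176, Glyur000175s00012042 and Glyur000401s00023652, every root library of 2 h also exceeded every control root. In the others of the 10, root libraries of 2 h and control overlapped.

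**Figure D3:**
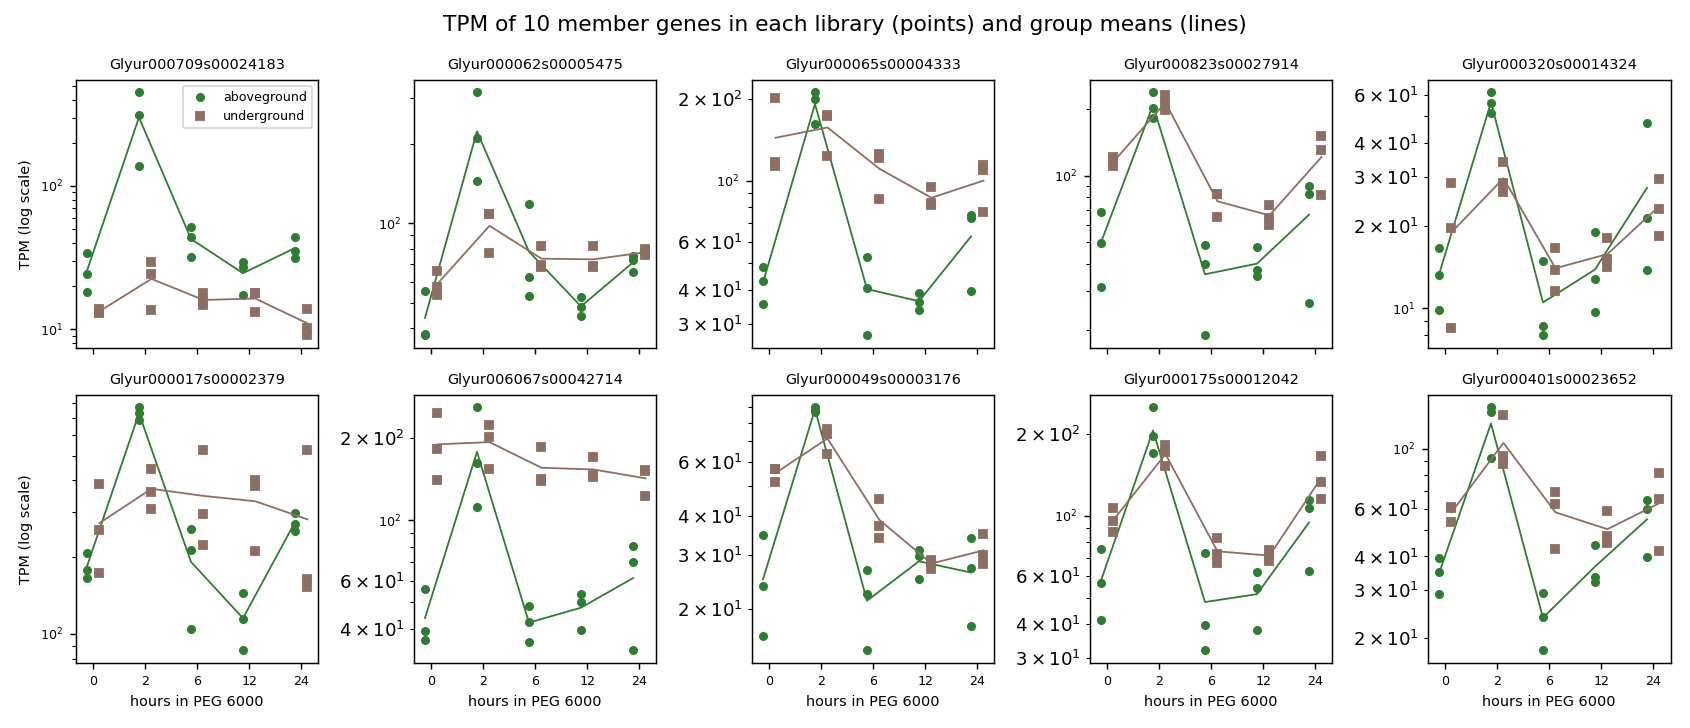
TPM on a log scale against hours in PEG 6000 for the 10 members, each in a panel of its own; circles are aboveground libraries, squares are underground libraries and lines join the group means. In each panel the 3 circles of 2 h lie above all 12 other circles, while the squares move less.

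Among the most abundant members at 2 h, Glyur001053s00027288 stood at 1519, 1813 and 2021 TPM, against 580.3, 373.1 and 750.1 TPM in control shoots. At 24 h it still had 899.3, 997.1 and 1228 TPM, above all 3 controls, and its difference from control there was 0.92, close to the limit. Glyur000100s00008355 had 513.1, 592.9 and 502 TPM at 2 h, against 155.3, 168.7 and 178.5 TPM in control, with a difference of 0.94 at 24 h. Glyur001006s00028645 had 360.0, 409.1 and 487.1 TPM at 2 h, against 120.7, 125.8 and 177.7 TPM in control. Glyur000085s00008849 had 376.8, 298.4 and 516.6 TPM at 2 h, against 130.2, 108 and 134.5 TPM in control, with a difference of 0.95 at 24 h. With Glyur000017s00002379 these make the 5 most abundant. In all 5, the 24 h mean lay above the control mean and below the 2 h mean. The rule sets the second of these on the log2(TPM + 1) scale.

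The members with the largest difference relative to their error included some with a modest difference. Glyur000176s00012110 had 51.9, 60.5 and 58.2 TPM at 2 h, against 19.9, 18.8 and 16.9 TPM in control shoots, a difference of 1.57 (SE 0.16). Glyur000042s00005087 had 120, 104.5 and 91.2 TPM, against 29.7, 36.5 and 35.8 TPM in control, a difference of 1.60 (SE 0.18). For Glyur000709s00024183, which also had the largest difference of the tested members, it was 3.39 (SE 0.38). These 3 had the largest ratio of difference to SE among the 53 tested members.

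At the other end, several members owed their place to 1 or 2 libraries. Glyur000615s00024002 was listed at 95.9 TPM in library 3 of 2 h and at 0 in the 29 other libraries. Glyur000398s00034458 was listed at 81.4 TPM in library 1 of 2 h and at 0 in all others. Glyur000710s00027828 had the largest difference of all, 3.94, with 54.9 and 64.2 TPM in libraries 1 and 2 of 2 h, 0 in library 3, 3.71 TPM in root library 10 of 24 h and 0 elsewhere. In all, 6 members were above 0 in only 1 of the 3 libraries of 2 h, and 5 were at 0 in every library outside 2 h aboveground. A listed 0 can be a failed estimate in files without read numbers, so no fold is given for them.

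**Figure D4:**
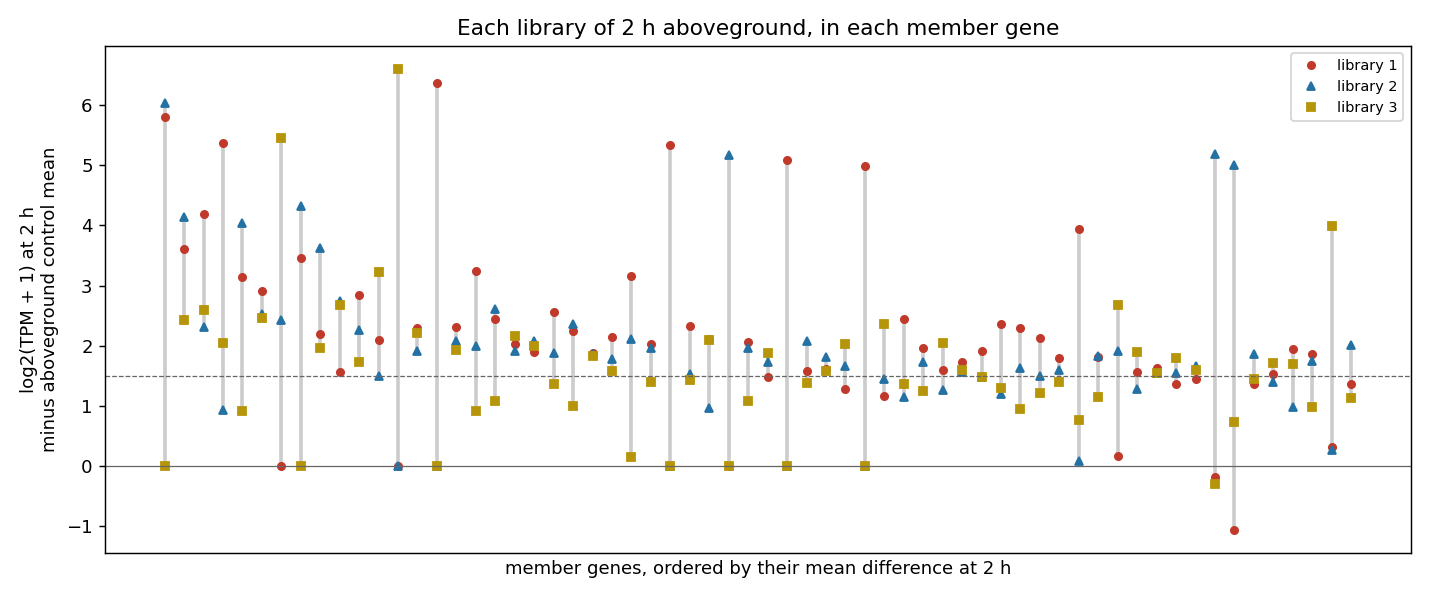
Each member's log2(TPM + 1) in library 1 (circles), 2 (triangles) and 3 (squares) of 2 h aboveground minus the aboveground control mean, with members ordered by the mean of the 3; grey bars join the lowest and the highest, and the dashed line marks 1.5. Long bars, reaching from near 0 to above 4, mark the members whose mean rests on 1 or 2 libraries.

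Membership depended on single libraries of 2 h. Chosen without library 3 of 2 h, the rule gave 104 genes, of which 51 were among the 62; without library 1 it gave 71 with 42 shared, and without library 2 it gave 89 with 52 shared. The library left out then gives a value that the choice did not use, although the control libraries were shared. In library 3, the 104 genes had a median difference from control of 0.78, 45 were at least 1 higher and 33 were at or below control. In library 1, the 71 genes had a median of 1.17, with 40 at least 1 higher and 17 at or below control. In library 2, the 89 genes had a median of 1.23, with 49 at least 1 higher and 23 at or below control. All 3 medians lay below the 1.70 of the 62 members, but they belong to other sets of genes, only partly shared with the members. How much of the gap comes from the choice was not tested.

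Only 12 members met the rule whichever of the 30 libraries was left out, and 11 of these were among the 31 above all other shoot libraries. They were Glyur000016s00003005, Glyur000017s00002379, Glyur000049s00003176, Glyur000062s00005475, Glyur000065s00004333, Glyur000175s00012042, Glyur000176s00012110, Glyur000252s00012675, Glyur000401s00023652, Glyur000709s00024183, Glyur000823s00027914 and Glyur006067s00042714. Of these, Glyur000016s00003005 and Glyur000252s00012675 are named for this reason alone, after their values were seen. Glyur000016s00003005 had 18.4, 20.0 and 7.16 TPM at 2 h, against 3.00, 3.66 and 2.63 TPM in control shoots. Glyur000252s00012675 had 265.9, 235.6 and 240.2 TPM at 2 h, against 74.4, 72.8 and 91.0 TPM in control shoots.

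The limits of the rule cut through a continuum. Glyur000166s00010576 was the last gene inside the limit at 2 h, with a difference of 1.502, and Glyur000929s00034891 the first outside it, with 1.499. At 24 h aboveground, Glyur000117s00007667 was inside at 0.995 and Glyur000054s00005336 outside at 1.004. For roots at 2 h, Glyur000006s00001661 was inside at 0.974 and Glyur000176s00012132 outside at 1.034. The nearest values for 6 h and 12 h aboveground were 0.783 in Glyur000025s00003377 and 0.922 in Glyur001070s00024981 inside, and -1.092 in Glyur000044s00005158 and -1.118 in Glyur000056s00004163 outside. For roots at 6, 12 and 24 h they were -0.976 in Glyur000279s00013235, 0.996 in Glyur000353s00015530 and -0.930 in Glyur000069s00004035 inside, and -1.295 in Glyur000033s00008598, -1.063 in Glyur000191s00015643 and -1.004 in Glyur000038s00004461 outside. By level, Glyur000215s00017028 was inside with 5.95 TPM and Glyur000288s00019882 outside with 4.96 TPM.

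At 24 h aboveground, most members lay between the control level and that of 2 h. Above the control mean stood 51 of the 62 at 24 h, against 27 at 6 h and 28 at 12 h, and 38 were at least 0.5 higher at 24 h, against 8 at 6 h and 8 at 12 h. In limma's test, 7 of the 53 tested were called higher at 24 h than in control (5.9% of all genes), a contrast the rule had used. The rule limits how far 24 h, 12 h and 6 h may each lie from control but does not fix which of them is higher. The members are nonetheless what its limits left of a pool in which 734 of 988 genes were at least 1 higher at 24 h and 7 lower, so the following counts are shaped by the choice and are a description. Of 53 members, limma called 9 (17.0%) higher at 24 h than at 12 h, against 6.29% of all tested genes. It called 0 lower, against 11.9% of all genes. At 24 h against 6 h, 13 (24.5%) were called higher, against 6.87% of all genes, and 0 lower, against 10.7%. The median member was 0.59 higher at 24 h than at 12 h, while the median of all tested genes was -0.31; against 6 h the medians were 0.64 and -0.06. Both comparisons share the 24 h libraries, and the genes of the background were not selected as the members were.

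Glyur000100s00008355 was called in both. It had 342.2, 250.8 and 388.1 TPM at 24 h, against 130.4, 133.6 and 110 TPM at 12 h, and was 1.37 higher (SE 0.21). The 24 h and 12 h libraries did not overlap. Glyur000176s00012110 had 32.0, 33.1 and 40.5 TPM at 24 h, against 15.9, 19.2 and 20.8 TPM at 12 h, and was 0.88 higher (SE 0.16). Glyur000017s00002379 had 270.4, 253.5 and 298.1 TPM at 24 h, against 86.1, 114.5 and 145 TPM at 12 h, and was 1.27 higher (SE 0.29). Glyur000085s00008849 and Glyur001006s00028645 were called too, at 1.17 (SE 0.24) and 0.84 (SE 0.25). Thus 4 of the 5 most abundant members were called higher at 24 h than at 12 h. The fifth, Glyur001053s00027288, was called against 6 h, at 1.65 (SE 0.37).

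These counts depended on the scaling of the libraries. When TPM values were rescaled by median ratios, 21 members were called higher at 24 h than at 12 h and 23 than at 6 h, and with quantile normalization 20 and 19. Rescaling moved the median of all genes from -0.31 to -0.03 for 24 h against 12 h and from -0.15 to -0.02 for 2 h against control. It also turned the balance of calls over all genes, with 2173 higher and 1608 lower in place of 1481 and 2799 for 24 h against 12 h, and 2219 and 2176 in place of 1618 and 2508 for 24 h against 6 h. Quantile normalization left more lower than higher calls, with 2037 higher and 2104 lower for 24 h against 12 h, and 1875 and 2602 for 24 h against 6 h. After median-ratio rescaling, calls for 2 h against control were 1510 higher and 986 lower in place of 1167 and 1290. For 24 h against control that rescaling gave 2070 and 1610 in place of 1390 and 2115. With only the 6 libraries compared, 6 members were called higher at 24 h than at 6 h.

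In the roots, where the rule kept every difference from control under 1, most members lay above control at 2 h. At 2 h underground 44 of the 62 were above the control mean of the roots, 24 of them by at least 0.5, and 7 were at least 0.5 below it. Of the 48 members that passed the filter in roots, limma called 13 higher at 2 h than in control (6.01% of all genes), in a contrast the rule had used. The rule does not fix the sign of the difference between 2 h and 6 h in roots, but it used both times, and in its pool of 988 genes 332 were at least 1 higher and 75 lower in roots at 2 h. The counts are therefore a description too. Between these times limma called 10 of 48 (20.8%) higher at 2 h, against 3.07% of all genes, and 0 lower, against 4.91%. Against 12 h, 13 (27.1%) were called higher at 2 h, against 3.04% of all genes, and 0 lower, against 3.85%. The median member was 0.57 and 0.56 higher at 2 h, and the medians of all tested genes were -0.14 and -0.15. After rescaling by median ratios, 14 and 16 members were called, and calls over all genes were 968 higher and 795 lower in place of 709 and 1135 for 6 h, and 911 and 623 in place of 702 and 890 for 12 h.

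Glyur000823s00027914 had 212.5, 199 and 231.2 TPM in roots at 2 h, against 82.5, 64.9 and 82.6 TPM in roots at 6 h. It was 1.48 higher (SE 0.20). Glyur000175s00012042 had 182.4, 170.6 and 151.7 TPM at 2 h, against 82.6, 72.5 and 66.8 TPM at 6 h, and was 1.18 higher (SE 0.15). Glyur000049s00003176 had 76.8, 63.3 and 73.9 TPM at 2 h, against 45.5, 34.0 and 37.1 TPM at 6 h, and was 0.87 higher (SE 0.14). In each of these 3 genes the libraries of the times did not overlap. Glyur000100s00008355, Glyur000042s00005087 and Glyur000085s00008849 were also among the 10. In all 6 of these genes the highest root mean was that of 2 h.

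Some members differed in direction between the parts at 2 h. Glyur001070s00024981 had 73.3, 83.2 and 28.0 TPM in shoots at 2 h, against 13.7, 9.56 and 15.6 TPM in control shoots, while roots had 18.8, 16.7 and 9.11 TPM at 2 h, against 17.3, 24.0 and 26.8 TPM in control roots. Glyur000117s00007667 had 34.7, 32.1 and 18.5 TPM in shoots at 2 h, against 7.78, 7.77 and 11.3 TPM in control shoots, while roots had 16.3, 19.4 and 12.8 TPM at 2 h, against 19.3, 25.9 and 26.6 TPM in control roots. In both genes 1 root library of 2 h overlapped with the root controls. Neither fall in roots was called: limma called 0 of the 48 tested members lower in roots at 2 h than in control. The difference between the parts at this time follows in part from the rule and was not tested.

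The difference between shoots and roots was not itself a condition of the rule. Compared between the parts with limma over all 30 libraries, more members were higher in roots than in shoots before treatment. Of 56 tested members, 2 (3.57%) were called higher aboveground and 23 (41.1%) higher underground at 0 h, against 16.9% and 19.7% of all 25420 tested genes. At 6 h the counts were 5 (8.93%) and 23 (41.1%), against 15.8% and 23.4%, and at 12 h 4 (7.14%) and 17 (30.4%), against 17.6% and 17.5%. The 0 h comparison shares its control libraries with the rule, which favours low shoot controls. Those at 6 and 12 h use other libraries, but the rule held these within 1 of the same controls, so none of the 3 comparisons is free of the choice. Aboveground minus underground, the median difference of the members came to -0.64 before treatment, -0.64 after 6 h and -0.45 after 12 h, against -0.10, -0.19 and -0.04 for all tested genes. After rescaling by median ratios, 4 and 21 members were called at 0 h, 6 and 20 at 6 h and 4 and 15 at 12 h. Calls over all genes were then 4966 higher and 4364 lower at 0 h in place of 4291 and 5003, 5053 and 4631 at 6 h in place of 4006 and 5958, and 4892 and 4112 at 12 h in place of 4480 and 4459.

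At 2 h the order was mostly the other way. The mean of 50 of the 62 members was higher aboveground than underground at 2 h, while in control it was lower aboveground in 43, and 31 members switched from the lower to the higher part. In 41 members the 2 h shoot mean exceeded every one of the 15 root libraries. That order at 2 h follows in part from the rule.

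**Figure D5:**
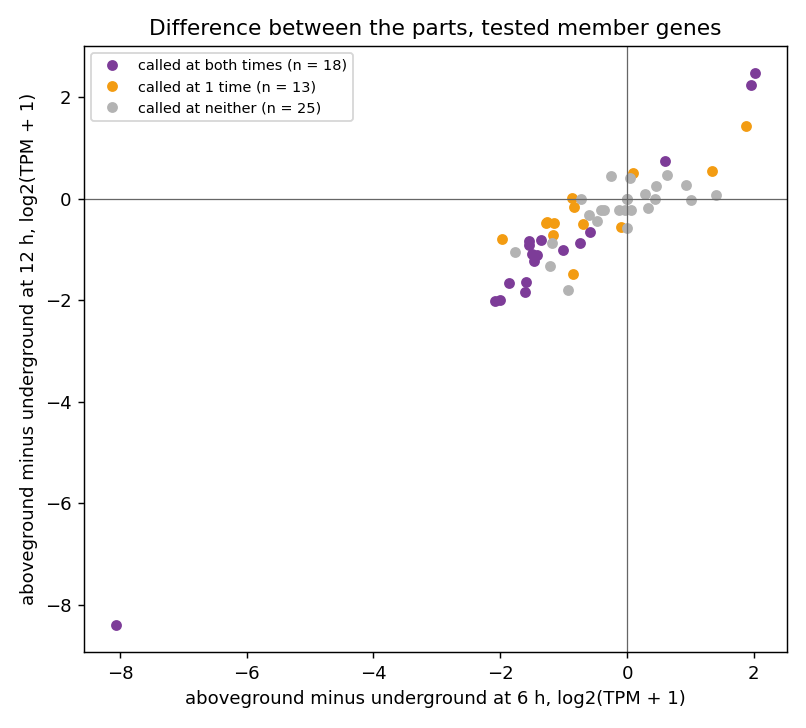
Difference between the parts, aboveground minus underground on the log2(TPM + 1) scale, at 6 h (x axis) and 12 h (y axis) for the 56 tested members; purple points passed limma's test at both times, orange points at 1 and grey points at neither. Most called points lie in the lower left, higher underground, with 1 point near -8 on both axes.

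The member with the strongest root bias was Glyur000374s00017954. It had 53.4, 12.1 and 13.7 TPM in shoots and 6049, 5750 and 5700 TPM in roots at 6 h, a difference of -8.06 (SE 0.54, limma adjusted p = 3.03e-11). It was the most abundant member in roots, from 2107 to 8723 TPM over 15 libraries. In shoots at 2 h it had 100.1, 40.1 and 46.6 TPM, against 10.2, 11.9 and 43.1 TPM in control shoots, so the groups overlapped. Glyur001053s00027288 and Glyur001006s00028645 followed in roots, with 771.8 to 2062 TPM and 243.9 to 462 TPM.

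Other members higher in roots were Glyur000437s00025666 and Glyur000010s00000903. Glyur000437s00025666 had 25.03, 14.97 and 12.9 TPM in shoots and 51.9, 95.0 and 85.9 TPM in roots at 6 h, a difference of -2.09 (SE 0.41, limma adjusted p = 2.88e-04). In shoots at 2 h it reached 32.2, 74.0 and 70.8 TPM, against 4.65, 14.98 and 14.8 TPM in control shoots. Glyur000010s00000903 had 2.12, 2.20 and 1.08 TPM in shoots and 7.82, 11.4 and 11.3 TPM in roots at 6 h, a difference of -2.01 (SE 0.37, limma adjusted p = 1.10e-04). These genes were named for their difference at 12 h, in other libraries than those of 6 h. The rule held both times within 1 of the same controls in each part, which ties the 6 h difference to that at 12 h. Their p-values at 6 h are therefore not free of the choice, nor are those of the shoot-biased members that follow.

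The 3 members with the largest shoot bias at 12 h were also higher in shoots at 6 h. Glyur000171s00016600 had 45.7, 54.4 and 46.9 TPM in shoots and 10.8, 13.9 and 11.0 TPM in roots at 6 h, a difference of 1.96 (SE 0.27, limma adjusted p = 3.23e-06). Its shoots had 121.8, 173 and 128.9 TPM at 2 h, against 52.1, 49.1 and 40.1 TPM in control. Glyur003470s00045574 had 4.53, 2.97 and 3.27 TPM in shoots and 0, 0.16 and 0.23 TPM in roots at 6 h, a difference of 2.01 (SE 0.55, limma adjusted p = 0.00530). Its shoots had 31.0, 14.4 and 2.95 TPM at 2 h, against 3.10, 2.94 and 1.80 TPM in control, so that 1 library of 2 h overlapped with the controls. Glyur000405s00021262 had 156.2, 194.8 and 142.9 TPM in shoots and 49.8, 50.5 and 33.5 TPM in roots at 6 h, a difference of 1.87 (SE 0.66, limma adjusted p = 0.0260). That call was lost without shoot library 4 or 5 or root library 6 of 6 h (adjusted p = 0.050, 0.0807 and 0.0866, where all settings ran from 5.33e-04 to 0.0866).

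Root-biased RNA in the shoot libraries moved in part with the result. The median log2(TPM + 1) of 572 genes at least 3 higher in roots over all libraries, members left out, was 1.80, 1.10 and 2.11 in libraries 1, 2 and 3 of 2 h aboveground, against 0.80, 0.95 and 1.68 in control libraries 31, 32 and 33. It was 2.08, 1.13 and 1.04 at 6 h, 1.56, 1.20 and 1.80 at 12 h and 1.88, 0.44 and 1.90 at 24 h, so high values occurred at every treated time. Of the members, 1 had that bias. Control libraries 31 and 32 had low values, and library 2 of 2 h had the lowest of its group. Between library 2 and these controls the median member difference was 1.87, with 53 of 62 members at least 1 higher. The rule used these same libraries, so a large difference was set by the choice. Library 11, which had the lowest root signal at 24 h, also had the lowest member median of its time. At 2 h the order differed: library 3 had the highest root signal, 2.11, and the lowest member median, 1.52. Library 4 of 6 h had a root signal of 2.08 and a member median of 0.09. The part of root-biased RNA in these results was not tested. In bulk samples, fewer cells of a kind and less RNA per cell cannot be told apart.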

How the data were processed

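The authors deposited, per the file headers, TPM for the same 34445 genes in each of 30 libraries; per the submitters' processing notes the tools included RSEM, StringTie, HISAT2, fastp, edgeR and DESeq2, with no version or role stated. Genome build and gene models: not given in the sources used here. Deposited TPM summed to 928931 to 972586 in a library. Since TPM holds no read numbers, depth is unknown and no counting interval can be given. Near-identical gene copies may share reads.

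Tests were made on log2(TPM + 1) with limma, version 3.58.1, under R version 4.3.3 (trend, Benjamini-Hochberg adjustment over all tested genes, threshold 0.05). A gene was kept where 3 or more of the fitted libraries had at least 1 TPM. Contrasts within a part used its 15 libraries, and contrasts between parts all 30; the fits were checked on simulated data. Figures were drawn with matplotlib 3.10.9.

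The members and all lists were chosen with earlier results of these data known. The comparisons of 24 h with 12 and 6 h aboveground and of 2 h with 6 and 12 h underground were added after the data were seen; since the rule used these times, they are given without p-values of single genes. Members were named by rule: the 10 largest differences among members above all other shoot libraries with at least 10 TPM, the 5 most abundant at 2 h, the 3 most abundant in roots, the 3 most biased to each part at 12 h, the 3 with the largest SD at 2 h, the 3 with the largest moderated statistic, and those nearest each limit. Planned lists of named gene families could not be applied, since identifiers are not paired with names. Alternatives were no filter, at least 5 TPM, a pseudocount of 0.1, quantile normalization, median-ratio rescaling, limma without trend, the library number as a block, a fit of only the 6 libraries compared, other limits of the rule, and leaving out each library.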

Additional observations from a re-analysis of the deposited data

Results flagged for a closer look

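Among the named members, 2 moved in opposite directions in the parts at 2 h, with every shoot library above the shoot control mean and every root library below the root control mean. For Glyur001070s00024981 the difference from control was 2.04 in shoots and -0.61 in roots, 2.66 apart on the log2(TPM + 1) scale. For Glyur000117s00007667 it was 1.53 in shoots and -0.54 in roots, 2.08 apart. Neither root difference passed limma's test, which called 0 of the 48 tested members lower in roots at 2 h than in control. The difference between the parts was not tested, and the rule sets part of it, since it asks for at least 1.5 in shoots and under 1 in roots.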

How the results depend on the processing

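The number of members was 62 by the rule as given. It was 19 with a rise of at least 2, 24 with a limit of 0.75 on the other differences, and 56 to 104 with 1 library left out. With a pseudocount of 0.1 it was 55, of which 39 were among the 62, with quantile normalization 64 and 38, and with median-ratio rescaling 73 and 41, so about as many genes met the rule but not the same ones. The count of members called higher aboveground at 0 h was 2, became 1 without a filter or without trend and 4 after median-ratio rescaling, and was 1 to 2 with 1 library left out. That at 6 h was 5 and became 3 to 5 with 1 library left out, 3 without shoot library 5 or root library 6. The 9 members called higher at 24 h than at 12 h became 20 with quantile normalization and 21 with median-ratio rescaling, and the 13 against 6 h became 23 with median-ratio rescaling and 6 with only the 6 libraries compared. The causes were not tested. All other counts of members, at 2 h, in roots and between the parts, stayed within 1.5 times under each setting run. Of 393 values of the named members at 2 h under other settings, 371 moved by less than 1 SD and none changed sign. The SD was that of the gene among its 3 libraries of 2 h, so unsteady genes had the most room. Another filter, no trend or a fit of only the 6 libraries cannot change this value, so such settings count as unmoved by construction. Named members that failed the filter of 1 TPM, such as Glyur000615s00024002, were run without a filter only.

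The parts share library numbers. Deviations from the group means correlated above 0.1 in 14 of 15 such pairs (0.097 to 0.345). Among the 3 root libraries of the same time, each shoot library correlated best with that of its own number. The labels do not say what a number marks. With the replicate number as a block, 2 members were called higher aboveground and 23 higher underground at 0 h, 5 and 24 at 6 h, and 5 and 17 at 12 h, close to the counts without it. No read numbers were at hand, so what depth limits among members under 1 TPM in control is unknown.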

Other observations

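Of the 62 members, 12 averaged under 1 TPM in every root group. Several of these were read in all 3 shoot libraries of 2 h. Glyur008676s00045548 had 10.4, 4.10 and 4.47 TPM at 2 h, against 1.42, 1.27 and 0.98 TPM in control shoots, and 0 to 1.56 TPM in the 15 root libraries. Glyur000045s00009959 had 6.25, 3.80 and 14.8 TPM at 2 h, against 0.44, 0.81 and 0.88 TPM in control shoots, and Glyur000050s00005713 had 11.0, 21.2 and 1.54 TPM, against 0.04, 0.18 and 1.02 TPM. Others rested on 1 library, such as Glyur001013s00034086, with 0.14, 46.4 and 0.05 TPM at 2 h, against 0.17, 0.23 and 0.51 TPM in control shoots. Outside these 12, Glyur000390s00023099 was low in control shoots and steady at 2 h, with 11.4, 8.54 and 8.10 TPM, against 0.54, 0.49 and 0.95 TPM. In roots Glyur000390s00023099 was also higher at 2 h, with 7.12, 5.6 and 7.26 TPM, against 2.8, 2.45 and 4.09 TPM in control roots. Its root libraries of 2 h and control did not overlap, and the root difference was 0.91, close to the limit of 1. These genes were chosen for mention after their values were seen.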
